A study of Rattus norvegicus with 232 samples.

Results

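The brains of Dahl salt-sensitive rats (SS/JrHsd) were compared with those of Dahl salt-resistant rats (SR/JrHsd), 3 animals of each strain. The members were chosen by the strain label alone and are 6 of the 232 samples described for the series, a survey of whole brain RNA across inbred and recombinant inbred rat strains. All 6 were untreated young adult males that had received neither alcohol nor other drugs and no behavioural test. No salt load or blood pressure is given for any of them, so that the comparison is of the strains at rest and not of a response to salt. Each animal was 1 library of ribosomal RNA depleted total RNA, made with a stranded kit from one side of a brain kept in RNAlater. The design text calls the replicates of a strain biological replicates. The strain is the only factor in the labels that fully separates the groups, and whatever fixed differences the inbred strains carry are all part of it. The batches hold animals of both strains in unequal numbers, as given below, and the amount of each brain region in a sample was not measured.

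Both strains were bred from the same outbred stock by selection for the blood pressure response to a high-salt diet: blood pressure rises in SS rats on such a diet and changes little in SR rats. The brain takes part in blood pressure control through hypothalamic and brainstem neurons, circumventricular organs and their peptides, and through local angiotensin, sodium and steroid signalling. Adrenal steroid synthesis has long been studied in these strains, and SR rats are known for coding variants of the steroid hydroxylase gene Cyp11b1. These points are background and were not measured here.

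Values are from the authors' RefSeq gene table, on a log2 scale whose unit is nominally a doubling. They are given throughout in the order of animals 1, 2 and 3. The steps behind this scale are not given in the sources used here. Folds and shares below are therefore those of the deposited values and need not be ratios of RNA. Depth is unknown because no read counts come with this table, so no counting error could be given. The medians over genes lay between 8.29 and 8.38 in the 6 animals. Animals 1 stood further from their strain than the others: the standard deviation over genes of the deviation from the strain mean was 0.249 in SR animal 1 and 0.171 in SS animal 1, against 0.117 to 0.167 in the other 4. The batch field of the labels puts SR animals 1 and 2 and SS animal 2 in batch 8 and the rest in batch 11, whereas the title of SS animal 1 names batch 8, so both assignments were fitted. As a check of the tissue, neuronal markers such as Snap25 and Map2 averaged 13.87 to 13.94 in the SS animals, and none of the 10 passed the test between the strains.

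Of 20859 genes tested with limma, with the spread estimated from all 197 animals in the table, 206 (0.988%) passed at a Benjamini-Hochberg adjusted p under 0.05. The SS brain was higher for 163 of them (0.781% of genes tested) and lower for 43 (0.206%). The differences were mostly modest, with a median of 0.55 on the log2 scale among the higher genes and of -0.66 among the lower ones, and 25 of the 206 reached 1 in size (16 higher, 9 lower). The 3 SS values lay apart from the 3 SR values for 203 of the 206 genes, all but Gfm2, Nid2 and Slc8a3. Of all genes tested 11.7% had values that did not overlap (7.63% with SS above SR and 4.08% with SS below). Genes called for their difference in these same animals are more likely to lie apart, so the 203 add no further evidence. Of the 163 higher genes, 146 are protein coding in RefSeq and 6 are long non-coding RNAs. Of the 43 lower genes, 29 are protein coding and 10 are long non-coding RNAs. The share of each kind among all genes tested was not computed, so nothing is read from these counts.

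The number of genes called rested on the shared estimate of the spread and on single animals. A fit to the 6 animals alone called 18 genes, and with the replicate number as a block 34, of which 26 were among the 206. Leaving out an animal gave 56 (SS 1), 55 (SS 2), 348 (SS 3), 70 (SR 1), 130 (SR 2) and 110 (SR 3) calls, and leaving out animal 1 of both strains, an alternative chosen after seeing the data, gave 32. Centring each animal on its median gave 162 calls and lowered the share that were higher in SS from 79.1% to 66%. Among the 34 named genes that were called, 13 kept the call whichever of the 6 animals was left out: LOC100360413, Slc38a8, LOC120101770, Atp11b, Thbd, Nid1, Gpld1, Hace1, Smad9, Ndrg3, Rtel1, Cyp11b2 and Rps12. In the 6-animal fit with the replicate block 8 of the 34 kept the call (LOC100360413, Slc38a8, LOC120101770, S100a5, Ndrg3, Rtel1, Cyp11b2 and Rps12) and the limma adjusted p of the other 26 lay between 0.058 (Cga) and 0.35 (Gcnt4), whereas with the block placed inside the fit over all animals, again chosen after seeing the data, 208 genes were called and all 34 kept the call. Most of the 21 that lost the call with an animal left out did so without SS animal 1 (18 of 34 named genes) or SR animal 1 (20 of 34), as given beside the genes.

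**Figure D1:**
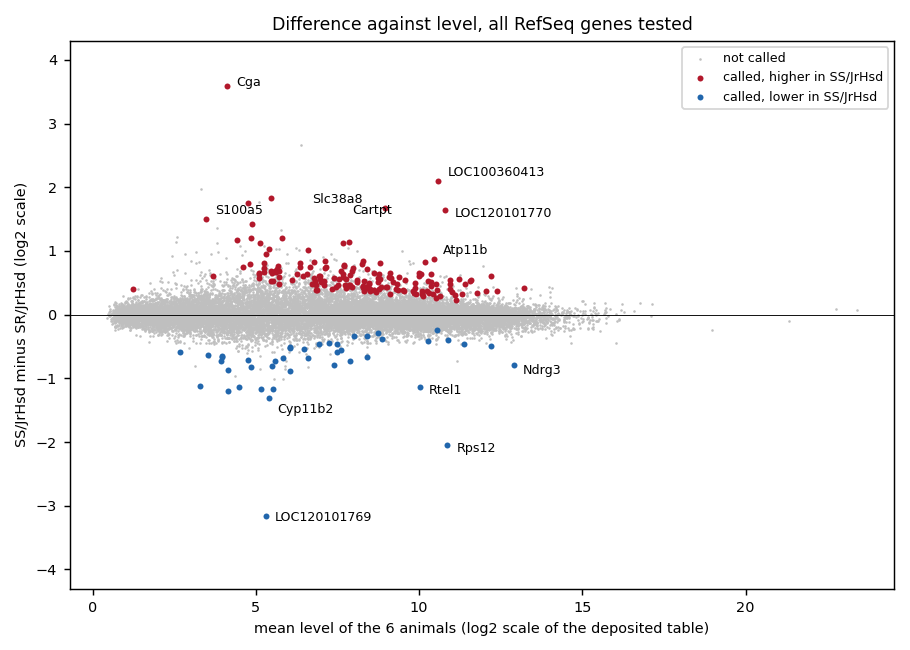
Each point is 1 of 20859 RefSeq genes, with the mean level of the 6 animals on the x axis and SS/JrHsd minus SR/JrHsd on the y axis, both on the log2 scale. Grey points did not pass the limma test, and the 163 red points (higher in SS) and 43 blue points (lower in SS) did: the differences reach 3.59 for Cga and -3.16 for LOC120101769.

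The gene with the smallest p was Rtel1, a DNA helicase that controls telomere length and resolves DNA loops during replication. Its levels in the SS animals were 9.38, 9.50 and 9.45, and in the SR animals 10.67, 10.58 and 10.49. All SS values lay about 1 unit below the lowest SR value. The difference was -1.13 (SE 0.12, limma adjusted p = 7.1e-13), which is 0.456 times the SR level on the deposited scale. The mean of SR stood above the means of all other 73 strains of the table (9.26 to 10.40 outside the Dahl pair), while 63 strains stood above SS. In the authors' earlier Ensembl table the difference was -1.33 (limma adjusted p = 2.4e-24). Rtel1 lies on chromosome 3 from 168424691 to 168465610 on the plus strand in the reconstruction annotation deposited with this table version, whose build is not named in the sources used here.

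Cyp11b2, aldosterone synthase, makes the last steps of aldosterone synthesis and is chiefly an enzyme of the adrenal cortex. It was low in every brain and lower in SS. The SS animals gave 4.84, 4.59 and 4.77 and the SR animals 5.80, 6.03 and 6.32. The groups did not overlap, and the difference of -1.32 (SE 0.21, limma adjusted p = 2.1e-05) is 0.402 times the SR level on the deposited scale. Only 1 other strain had a higher mean than SR, and 50 stood above SS. Its single RefSeq transcript measured here differed in the same direction, by -3.09 (limma adjusted p = 0.0495). That value comes from the same animals and reads and is no independent evidence. Why the transcript and gene differences are unlike in size was not tested. No value of Cyp11b2 was found in the authors' Ensembl versions 5 and 6, so the difference could not be checked there.

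The neighbours of Cyp11b2 in the cluster did not all follow it. Cyp11b1, which makes corticosterone and lies in the same family, stood at 8.99, 9.16 and 9.25 in SS and 9.37, 9.17 and 9.13 in SR, a difference of -0.09 (limma adjusted p = 0.96). Cyp11b3, the third rat enzyme of the family, differed by -0.66 with overlapping groups (limma adjusted p = 0.17). Gml, a GPI-anchored protein gene next to the cluster, was lower in SS, at 5.37, 5.36 and 6.05 against 6.47, 6.52 and 6.42 (-0.88, limma adjusted p = 0.0086). Gml was looked at after its value was seen. The Cyp11b genes are close copies, the counting of shared reads in this table is not given in the sources used here, and the split of reads among them is uncertain.

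The clearest local pattern lay on chromosome 3, where Ndrg3 and a pair of adjacent RefSeq genes without a proper name, LOC120101770 and LOC120101769, differed in opposite directions. NDRG3 belongs to the N-myc downstream regulated family and is known as a lactate-responsive protein. The RefSeq table also lists a further neighbour named Ndrg3-ps1, which is not analysed here. The 300 bases around the first listed start of each unnamed gene are printed from RefSeq, with the base that differs in capitals (build GRCr8, minus strand, 5′ to 3′, ending downstream of the start). LOC120101769 is at chr3:165964086-165964385 and LOC120101770 at chr3:166003561-166003860.
LOC120101769: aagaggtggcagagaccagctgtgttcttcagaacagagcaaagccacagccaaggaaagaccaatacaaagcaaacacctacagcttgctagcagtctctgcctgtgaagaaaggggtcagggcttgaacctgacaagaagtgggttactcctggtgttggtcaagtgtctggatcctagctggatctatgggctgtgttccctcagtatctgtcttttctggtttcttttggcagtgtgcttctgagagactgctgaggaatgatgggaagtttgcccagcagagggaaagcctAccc
LOC120101770: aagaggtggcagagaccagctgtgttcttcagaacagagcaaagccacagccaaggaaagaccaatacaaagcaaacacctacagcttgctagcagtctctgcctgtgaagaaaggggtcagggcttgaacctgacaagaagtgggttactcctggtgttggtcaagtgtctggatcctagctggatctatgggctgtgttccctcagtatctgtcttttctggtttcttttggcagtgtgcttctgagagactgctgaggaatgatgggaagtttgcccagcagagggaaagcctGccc
The windows are identical at 299 of 300 bases (99.7%), with A297G counted from 1 at the 5′ end and LOC120101769 first. At their other listed starts the windows matched at 292 of 295 bases (99%) and at 300 of 300. Against the first window of Ndrg3 itself the best match without gaps was 91 of 294 bases (31%). All these windows lie around starts and not along the transcripts. The matches therefore cannot show how far reads of the 3 genes can be told apart.

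LOC120101770 was higher in SS, at 11.52, 11.88 and 11.48 against 9.97, 9.96 and 10.02 in SR (1.64, SE 0.19, limma adjusted p = 1.5e-10). LOC120101769, chosen after its values were seen, went the other way, at 4.06, 3.61 and 3.51 in SS against 6.92, 6.84 and 6.90 in SR (-3.16, SE 0.34, limma adjusted p = 2.8e-12). Ndrg3 was lower in SS, at 12.52, 12.46 and 12.57 against 13.33, 13.14 and 13.44 (-0.78, SE 0.10, limma adjusted p = 3.1e-08). The transcripts paired with Ndrg3 ranged from -2.38 (NM_001013923.1) to 4.49 (XM_039104623.1), and limma called none of them. None of the 3 genes overlapped between the strains, and the SR values of both unnamed genes were nearly equal among animals.

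When the 3 levels were summed on the linear scale, the log2 sum was 13.15 ± 0.047 (SD, n = 3) in SS and 13.46 ± 0.14 (SD, n = 3) in SR, a difference of -0.31 that was not tested. LOC120101770 took 33.2%, 40.0% and 31.9% of the sum in the SS animals and 8.81%, 9.80% and 8.48% in the SR animals. The share of Ndrg3 was 66.7%, 59.9% and 68.0% in SS and 90.1%, 89.1% and 90.5% in SR. LOC120101769 never passed 1.13% of the sum. The shares are not corrected for transcript length and were taken from the deposited log2 values. Whether they reflect the RNA made by each gene or the assignment of shared reads was not tested.

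**Figure D2:**
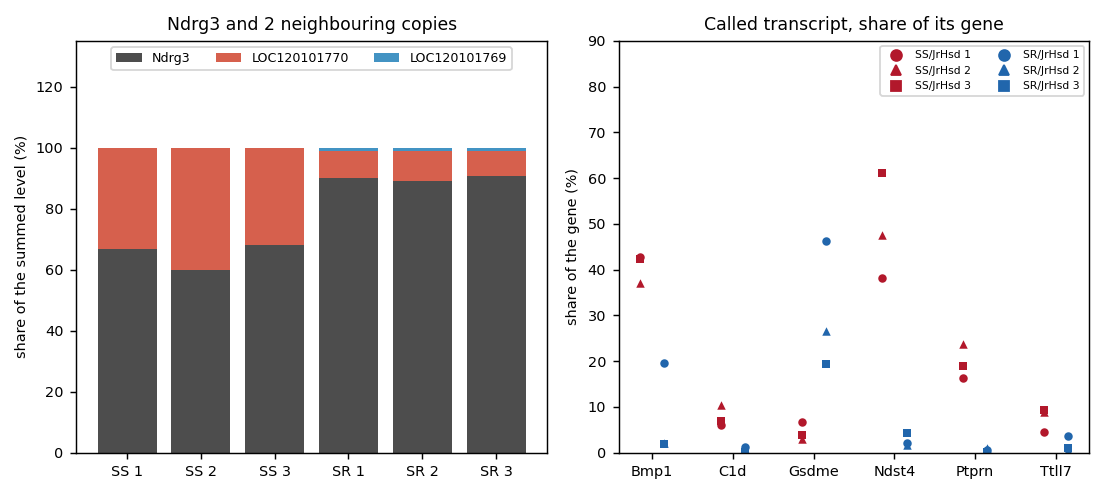
Left, the share (%) of the summed linear level that Ndrg3, LOC120101770 and LOC120101769 took in each animal: LOC120101770 holds 31.9% to 40.0% in SS and 8.48% to 9.80% in SR. Right, the share (%) of its gene's summed transcript level taken by the called transcript of 6 genes, SS animals in red and SR animals in blue, with Gsdme lower and the other 5 higher in SS.

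LOC100360413, named Eef1a1l1 in RefSeq, is a copy of the translation elongation factor gene Eef1a1, on chromosome X. It was higher in SS, at 11.42, 11.82 and 11.67 against 9.16, 9.53 and 9.95 (2.09, SE 0.27, limma adjusted p = 1.2e-08), while in the Ensembl table it differed by 0.29 (limma adjusted p = 0.22) at a mean level of 14.93 in SS, and in the version 6 table by 1.80 (limma adjusted p = 5.0e-05). A further copy chosen after its value was seen, LOC103691939 (Eef1a1l2), was lower in SS (-1.17, limma adjusted p = 0.038). Rps12, a protein of the small ribosomal subunit, was lower in SS, at 10.09, 9.44 and 9.99 against 11.59, 11.88 and 12.20 (-2.05, SE 0.35, limma adjusted p = 5.6e-05), and differed by -0.12 in the Ensembl table (limma adjusted p = 0.80) and by -1.98 in version 6 (limma adjusted p = 6.9e-05).

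Slc38a8, a glutamine transporter of the SNAT family, gave 9.69, 10.00 and 9.64 in SS and 8.45, 8.13 and 7.74 in SR (1.67, SE 0.30, limma adjusted p = 1.6e-04). In the Ensembl table it was low in all 6 animals, at 2.65 to 2.80 in SS and 2.63 to 2.73 in SR, and did not pass (0.06, limma adjusted p = 0.59), nor did it in version 6 (0.05, limma adjusted p = 0.99). The 3 genes LOC100360413, Slc38a8 and Rps12 are the only ones of the 30 called named genes found in the Ensembl table that were not called there. LOC688754, a voltage-dependent anion channel pseudogene (Vdac1-ps11 in RefSeq) chosen after its value was seen, was higher in SS by 1.82 (limma adjusted p = 3.4e-07).

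Atp11b, a flippase that moves phospholipids across endosomal membranes, was higher in SS, at 10.73, 11.01 and 10.96 against 10.18, 10.07 and 9.83 in SR. The SR mean was below those of all the other 73 strains, and SS stood in their midst with 43 above it. The difference of 0.87 (SE 0.14, limma adjusted p = 3.2e-05) was larger in the Ensembl table, at 2.07 (limma adjusted p = 7.5e-21).

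Nid1, Thbd and Gpld1 were each higher in SS. Nid1, nidogen-1, which links laminin and collagen IV in basement membranes, stood at 10.66, 10.74 and 10.62 in SS and 10.04, 10.01 and 10.05 in SR (0.64, SE 0.12, limma adjusted p = 2.9e-04), and SS was above every other strain. Thbd, thrombomodulin, the endothelial receptor that turns thrombin towards protein C, gave 9.16, 8.94 and 8.76 against 8.08, 8.48 and 8.34 (0.65, limma adjusted p = 4.5e-04), again with SS above every other strain. Gpld1, a phospholipase that cuts GPI anchors, gave 10.29, 10.48 and 10.35 against 9.68, 9.76 and 9.76 (0.64, limma adjusted p = 4.0e-05). Lack of overlap between the strains was a condition for naming these 3 genes. They kept their calls when any animal was left out.

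Among complement genes, C1s, a protease that starts the classical pathway, was 9.19, 9.11 and 8.96 in SS and 8.24, 8.66 and 8.46 in SR (0.63, limma adjusted p = 0.0018, and 0.071 without SR animal 1). Its partner protease and chromosomal neighbour C1r, looked at after its value was seen, was also called (0.48). C7, which builds the membrane attack complex, was higher in SS by 0.81 (limma adjusted p = 0.0055), but not without SS animal 2 (0.069) or SR animal 1 (0.15). The C1q chains, which microglia make, were not called, and the 5 classical pathway C1 genes ranged from -0.18 to 0.63.

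Coch, cochlin, an extracellular matrix protein, was higher by 0.66 (limma adjusted p = 0.0074, and 0.26 without SS animal 1 or 0.15 without SR animal 1). Mx2, an interferon-induced GTPase, was higher by 0.61 (limma adjusted p = 0.044) and kept the call only when SR animal 2 was left out.

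On the lower side, Smad9, a transducer of bone morphogenetic protein signals, was 8.15, 7.96 and 8.07 in SS and 8.58, 8.77 and 8.82 in SR (-0.66, SE 0.12, limma adjusted p = 3.5e-04). SS was below every other strain, and SR was among the lower ones with 51 strains above it. Hace1, a ubiquitin ligase acting on Rac1, was 10.99, 11.18 and 11.23 against 11.56, 11.62 and 11.59 (-0.46, limma adjusted p = 1.6e-04). Anxa6, a calcium-dependent membrane-binding annexin, was lower in SS (-0.49, limma adjusted p = 0.0092), with the call lost without SS animal 3 (0.054) or SR animal 1 (0.19).

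The other lower genes were smaller in size. Rtn4ip1, a mitochondrial oxidoreductase, differed by -0.38 (limma adjusted p = 0.0074, and 0.096 at most with an animal left out). Col19a1, a non-fibrillar collagen made by neurons, differed by -0.41 (limma adjusted p = 0.013, and up to 0.32). Erich3, a protein of cilia, by -0.40, Mkx, a homeobox factor of tendon, by -0.34, and Gcnt4, a glycosyltransferase, by -0.29 each had an adjusted p from limma of 0.030 to 0.044, and each lost the call when any of 5 of the 6 animals was left out.

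**Figure D3:**
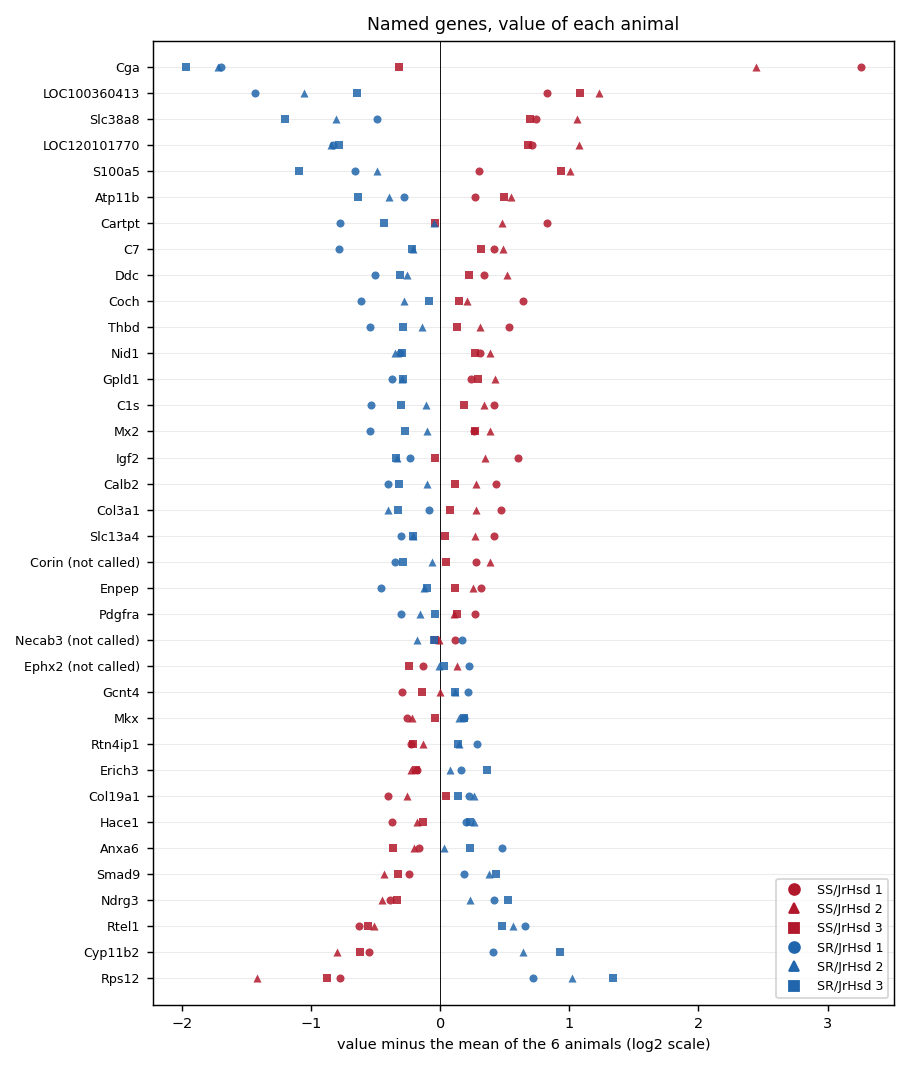
Value of each animal minus the mean of the 6 animals (x axis, log2 scale) for 36 of the 37 named genes, ordered by SS minus SR; red is SS, blue is SR, and circles, triangles and squares are animals 1, 2 and 3. Corin, Necab3 and Ephx2 were not called, and the strains overlap only for Necab3 and Ephx2. Lack of overlap was a condition for the genes named by the size of their difference.

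Of the markers of the hypothalamus, 1 of 10 was called, of those of the pituitary and pineal 1 of 7 and of those of the olfactory bulb 2 of 10, all higher in SS, against 0.988% of all genes called and 0.781% called higher. In bulk tissue more cells of a kind, a larger piece of the region in the sample, and more RNA per cell cannot be told apart, and each list is described by its counts beside those over all genes, whose median difference was -2e-04, with 49.9% above 0 and 10.1% at an unadjusted p under 0.05 (6.93% higher and 3.15% lower in SS). At that unadjusted p the members higher in SS were 7 of 10 for hypothalamus, 5 of 7 for pituitary and pineal, 8 of 10 for olfactory bulb, 7 of 10 for meninges and 7 of 10 for choroid plexus, and none was lower. Pomc is on both the hypothalamic and the pituitary and pineal list, so these counts are not all of separate genes. Of 10 hypothalamic markers 9 were above 0 and their median was 0.84, with 1 called. That gene was Cartpt, a precursor of anorexigenic peptides, at 9.11, 8.76 and 8.24 in SS and 7.51, 8.23 and 7.84 in SR (0.84, limma adjusted p = 0.022, but 0.39 without SS animal 1, 0.14 without SS animal 2, 0.23 without SR animal 1 and 0.084 without SR animal 3). The lowest SS and the highest SR animal were almost equal.

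The mean over the hypothalamic list was 7.84, 7.41 and 7.03 in SS and 6.47, 7.02 and 6.71 in SR, so that SS animal 3 and SR animal 2 were alike. Pomc, the precursor of melanocortins and corticotropin, differed by 1.03 (limma adjusted p = 0.083) and Trh, thyrotropin-releasing hormone, by 0.78 (0.091). Avp and Oxt, the posterior pituitary hormones, differed by 0.90 (limma adjusted p = 0.40) and 0.85 (0.56) with overlapping groups. Crh and Agrp were at 0.05 and -0.02.

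Calcr, Irs4, Arhgap36 and Gpr101, which are on none of the lists and were chosen after their values were seen, were called and higher in SS. Calcr, the calcitonin receptor, stood at 8.64, 8.24 and 7.77 in SS and 6.67, 7.64 and 6.98 in SR (1.12, limma adjusted p = 0.021). Irs4, an insulin receptor substrate, differed by 0.77 (limma adjusted p = 0.048), Arhgap36, an activator of Hedgehog signalling, by 0.80 (0.030) and the orphan receptor Gpr101 by 0.58 (0.049). SR was below all other strains for Calcr, Irs4, Arhgap36, Cartpt and Cga, and SS was not above all of them for any of the 5.

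Cga, the shared alpha chain of the pituitary glycoprotein hormones, had the largest difference of any gene tested. The SS animals gave 7.38, 6.57 and 3.81 and the SR animals 2.42, 2.41 and 2.16. SS animals 1 and 2 stood far above SS animal 3, and all 3 stood above SR. The SR values, against which the fold below is taken, were low. In the Ensembl table they were nearly equal, at 3.37, 3.36 and 3.37. The difference was 3.59 (SE 0.85, limma adjusted p = 0.011), a level 12.1-fold higher on the deposited scale. It ranged from 2.86 to 4.65 with an animal left out, was 1.43 in the Ensembl table (limma adjusted p = 1.8e-04) and 2.68 in version 6 (limma adjusted p = 0.021), and was not called without SS animal 1 (0.26), SS animal 2 (0.13), SR animal 1 (0.055) or SR animal 3 (0.055). Of the 7 pituitary and pineal markers measured, Cga was the only one called and 6 were above 0, with Tph1, the pineal tryptophan hydroxylase, at 2.67 (limma adjusted p = 0.39), Lhb at 0.49 (0.15) and Pou1f1 at -0.16.

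Of the 10 olfactory bulb markers 8 were above 0. The strains did not overlap for these 8, all with SS above SR, against 7.63% of all genes, and the median was 0.81. S100a5, a calcium-binding protein of olfactory sensory axons, was 3.77, 4.47 and 4.41 in SS and 2.81, 2.98 and 2.38 in SR (1.49, limma adjusted p = 0.044), and lost the call when any animal was left out (0.074 to 0.27). Calb2, calretinin, differed by 0.55 (limma adjusted p = 0.018), and lost the call without SS animal 1, SS animal 2, SR animal 1 or SR animal 3 (0.26 at most). Th, the dopamine synthesis enzyme of bulb and midbrain neurons, differed by 1.05 (limma adjusted p = 0.053), Eomes by 1.01 (0.12) and Tbx21 by 0.96 (0.11). The mean over the list was 7.42, 7.75 and 7.72 in SS and 6.98, 7.04 and 6.74 in SR.

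Of markers of the coverings of the brain 3 of 10 were called, all higher in SS, and of the choroid plexus none. Of all genes tested 0.988% were called and 0.781% were called higher. All 10 markers of meninges and fibroblasts were above 0, the median was 0.52, and 3 were called: Igf2, a growth factor made by meninges and choroid plexus (0.60, limma adjusted p = 0.0094), Col3a1, a fibrillar collagen (0.55, 0.049), and Slc13a4, a sulfate transporter (0.48, 0.034). Igf2 stood at 12.81, 12.56 and 12.17 in SS and 11.98, 11.88 and 11.87 in SR, and SS was above every other strain. Igf2 lost the call without SS animal 1 (limma adjusted p = 0.29), SS animal 2 (0.086) or SR animal 3 (0.054), and Col3a1 and Slc13a4 lost it when any animal but SS animal 3 was left out (up to 0.42 and 0.36). Over the list the SS means were 11.10, 10.84 and 10.64 and the SR means 10.44, 10.41 and 10.41.

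All 10 choroid plexus markers were above 0 with a median of 0.58, and none was called by limma. Ttr, the transthyretin that the plexus secretes, differed by 0.36 (limma adjusted p = 0.86). The mean difference over the list was 1.01 within batch 8 and 0.15 within batch 11, and the list means were 8.82, 9.40 and 9.09 in SS and 8.43, 8.36 and 8.81 in SR, so that SS animal 1 and SR animal 3 were alike. Blood markers went the other way without a call, with 9 of 10 below 0, a median of -0.18 and 1 at an unadjusted p under 0.05. In the Ensembl table, where 4.19% of genes were called, the calls in these lists were all higher in SS and numbered 6 of 9 meningeal, 6 of 9 olfactory bulb, 3 of 10 hypothalamic, 3 of 7 pituitary and pineal and 2 of 9 choroid plexus markers, from the same animals. How far the amount of meninges, plexus, bulb or hypothalamus in each sample entered the differences of other genes was not tested.

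Families of matrix and cilia genes were put together after the values were seen. Both nidogens and both fibrillins were called higher in SS, as were 2 of 4 thrombospondins and 2 of 11 laminins, where 0.781% of all genes were, and the choice of families with the values known means that nothing is read from these counts. Of 44 collagens 5 were higher, with Col3a1 of the meningeal list among them, and 1 was lower, Col19a1, and their median was 0.054. Of 13 axonemal dynein heavy chains, which drive motile cilia such as those of ependyma, 3 were higher, Dnah3, Dnah6 and Dnah11, and 11 were above 0. Pdgfra, the receptor that marks oligodendrocyte precursors and is also made by fibroblasts, was higher by 0.34 (limma adjusted p = 0.0089, but 0.19 without SS animal 1 and 0.15 without SR animal 1), while the other 5 precursor markers were below 0.

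Markers of neurons, astrocytes, oligodendrocytes, microglia, endothelium, cerebellum, striatum and hindbrain gave no call in limma, while with the Ensembl annotation 1 of 9 neuronal markers was called, Slc17a7, lower in SS (0.988% of all genes were called in the first table and 4.19% in the second). Of their 10 members each, 1 marker had an unadjusted p under 0.05 in each of the lists for astrocytes, oligodendrocytes and endothelium, higher in SS, and none in the other lists. All 10 striatal markers were below 0 in SS, between -0.27 and -0.01, with a median of -0.16. For 5 of them all SS values lay below all SR values, against 4.08% of all genes, and for none above. The means over the striatal list were 10.00, 10.10 and 10.11 in SS and 10.29, 10.21 and 10.18 in SR. The median of the neuronal markers was -0.07 and that of the astrocyte markers 0.08.

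**Figure D4:**
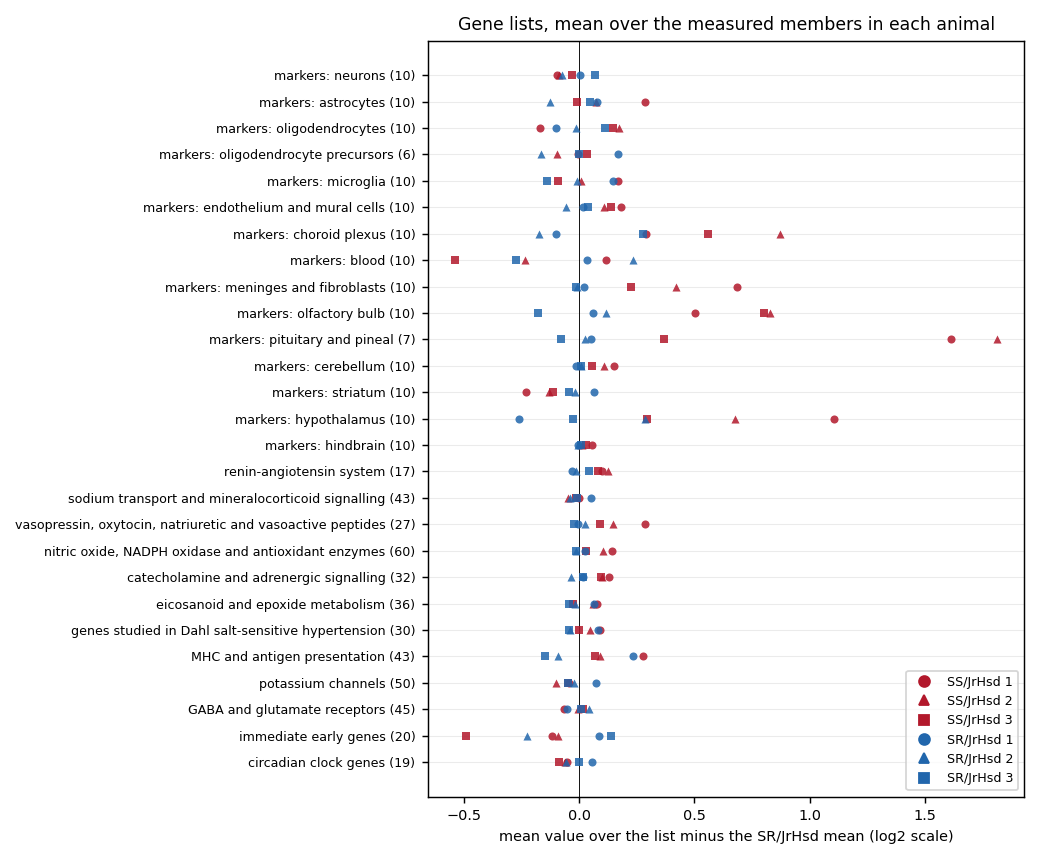
Mean level over the measured members of each list (number in brackets) in each animal, minus the mean of the SR animals (x axis, log2 scale); red is SS, blue is SR, with circles, triangles and squares for animals 1, 2 and 3. The lists for pituitary and pineal, olfactory bulb, hypothalamus, choroid plexus and meninges have SS means furthest to the right, with SS animal 3 beside SR animal 2 for hypothalamus and SS animal 1 beside SR animal 3 for choroid plexus, and the blood pressure lists lie closer to 0.

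Each list for blood pressure control had 0 or 1 called member, read against 0.988% of all genes tested. In the renin-angiotensin system 1 of 17 measured genes was called, Enpep, aminopeptidase A, which turns angiotensin II into angiotensin III. It stood at 8.17, 8.12 and 7.97 in SS and 7.40, 7.74 and 7.76 in SR (0.46, SE 0.11, limma adjusted p = 0.0087). It was not called without SS animal 1 (0.13), SS animal 2 (0.076) or SR animal 1 (0.20). The substrate Agt differed by 0.26 (limma adjusted p = 0.85), the receptor Agtr1a by 0.29 (0.64), the converting enzyme Ace by 0.29 (0.68), and Mas1, the receptor for angiotensin 1-7, by -0.35 (0.16). With the Ensembl annotation, where 4.19% of all genes were called, 3 of 16 were called, Enpep and Prcp, a carboxypeptidase that shortens angiotensin peptides, higher and Mas1 lower in SS.

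In sodium transport and mineralocorticoid signalling 1 of 43 genes was called, Cyp11b2. The mineralocorticoid receptor Nr3c2 differed by -0.03 (limma adjusted p = 0.98) and Hsd11b2, which shields that receptor from corticosterone, by 0.40 (0.11). Scn7a, the sodium sensor channel of circumventricular organs, differed by 0.74 (limma adjusted p = 0.060). The epithelial sodium channel subunit Scnn1a was at -0.03 (limma adjusted p = 0.99). By the Ensembl annotation 4 of 38 were called (4.19% of all genes), all higher in SS: Slc4a4, Slc12a7, Hsd11b2 and Scn7a.

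Of 27 genes of vasopressin, oxytocin, natriuretic and vasoactive peptides none was called by limma, and 6 had an unadjusted p under 0.05, all higher in SS. Corin, the protease that activates atrial natriuretic peptide, was 4.58, 4.68 and 4.34 against 3.95, 4.23 and 4.01. The groups did not overlap, but the difference of 0.47 did not pass (limma adjusted p = 0.24). Of 60 genes of nitric oxide, NADPH oxidase and antioxidant enzymes none was called and 11 had an unadjusted p under 0.05, 10 of them higher in SS, with Gpx3, the plasma glutathione peroxidase, at 0.62 (limma adjusted p = 0.059). From the Ensembl values 2 of 25 genes of the first list were called, Ece2 and Ednra, both higher, and 3 of 57 of the second, Hmox1 and Gpx3 higher and Gucy1a1 lower in SS, against 4.19% of all genes.

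Ddc, the decarboxylase that makes dopamine and serotonin, was the only one called of 32 catecholamine and adrenergic genes. It stood at 8.74, 8.91 and 8.62 in SS and 7.89, 8.14 and 8.08 in SR (0.72, SE 0.17, limma adjusted p = 0.011), and SR was below all other strains. The call was lost without SS animal 1 (0.070), SS animal 2 (0.14) or SR animal 1 (0.10). The vesicular transporter Slc18a2 differed by 1.01 (limma adjusted p = 0.11) and the dopamine transporter Slc6a3 by 0.95 (0.20), whereas the noradrenaline enzyme Dbh was at 0.03. In the Ensembl table, where 4.19% of all genes were called, 4 of 31 were called, Ddc, Slc18a2, Slc6a3 and Th, all higher in SS. Th is also on the olfactory bulb list.

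Of 30 genes studied in Dahl hypertension none was called by limma, and 6 had an unadjusted p under 0.05, all higher in SS, against 6.93% of all genes. Kcnj16, a potassium channel subunit of kidney and brainstem, differed by 0.50 (limma adjusted p = 0.14) and was called in the Ensembl table, as was Inpp4b. Ephx2, soluble epoxide hydrolase, which degrades vasodilator epoxides, was 7.70, 7.96 and 7.59 in SS and 8.05, 7.82 and 7.86 in SR (-0.16, SE 0.27, limma adjusted p = 0.97). Necab3, a neuronal calcium-binding protein, was 10.40, 10.28 and 10.25 against 10.45, 10.10 and 10.24 (0.04, SE 0.12, limma adjusted p = 0.98). Both overlapped between the strains.

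Among 36 genes of eicosanoid metabolism, 43 of antigen presentation, 50 potassium channels, 45 GABA and glutamate receptors and 19 clock genes no gene was called by limma, and 6, 11, 7, 6 and 2 had an unadjusted p under 0.05, against 10.1% of all genes. In the Ensembl table the calls were 1 of 35 (lower in SS), 3 of 23 (higher), 7 of 43 (2 higher, 5 lower), 2 of 45 (1 each way) and 0 of 18, against 4.19% of all genes. Antigen presentation genes had a median of 0.15, and the class I gene RT1-CE11 stood apart at -0.86 (limma adjusted p = 0.074). Of the potassium channels 38 were below 0. All 20 immediate early genes, which neuronal activity induces, were below 0 in SS, with a median of -0.19 and no call (3 at an unadjusted p under 0.05), and with the Ensembl annotation 1 of 19 was called, Nr4a2, lower in SS. Their list means were 9.46, 9.48 and 9.09 in SS and 9.66, 9.35 and 9.71 in SR, and the mean difference was -0.02 within batch 8 and -0.44 within batch 11, where SS animal 3 was the lowest and SR animal 3 the highest of the 6.

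At the level of transcripts, 70 of 45918 (0.152%) were called by limma, 52 higher (0.113%) and 18 lower in SS (0.0392%). The fit to the 6 animals alone called none, with 2238 at an unadjusted p under 0.05, and with the replicate block none, with 2432. Leaving out SS animal 1, 2 or 3 gave 36, 26 and 90, and leaving out SR animal 1, 2 or 3 gave 35, 40 and 35. Of the called transcripts, 43 belong to 42 genes measured in the gene table, and 35 of these genes were called as well. For the other 7 the gene as a whole did not pass.

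Ptprn, a protein of dense-core vesicles in neuroendocrine cells, had 4 transcripts. One of them, XM_017596230.2, was 10.77, 11.20 and 10.78 in SS and 6.63, 6.59 and 3.98 in SR (5.18, limma adjusted p = 0.0052). It made up 16.2% to 23.8% of the gene in SS and 0.17% to 1.12% in SR, while the gene differed by -0.16 (limma adjusted p = 0.94). Of its other transcripts XM_006245134.4, the highest in SR at a mean of 12.71, differed by -1.49 (limma adjusted p = 0.70), NM_053881.1 by 0.73 (0.82) and XM_017596229.1 by -0.23 (1.00).

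Gsdme, a pore-forming gasdermin, showed the reverse for XM_039107732.1, at 5.32, 4.47 and 4.68 in SS and 8.16, 7.92 and 7.26 in SR (-2.96, limma adjusted p = 7.7e-08). That transcript was 3.10% to 6.72% of the gene in SS and 19.3% to 46.3% in SR. Ndst4, which sulfates heparan chains, had XM_039102716.1 at 6.39, 6.54 and 6.71 against 0.86, 0.78 and 2.45 (5.18, limma adjusted p = 0.0076). Ttll7, a tubulin polyglutamylase, had XM_039103875.1 higher by 2.34 (limma adjusted p = 2.0e-04), at 0.67% to 3.63% of the gene in SR and 4.45% to 9.29% in SS. Transcripts of a gene share most of their reads, and their split rests on the model that assigned them.

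Of 14923 genes with a position in the deposited annotation 159 (1.07%) were called, most often on chromosomes 2 (24 of 1001, 2.4%), 17 (2.35%) and 15 (2.15%), and not at all on chromosome 12 (of 482). With gaps of up to 2 Mb, the longest run was 6 called genes of 93 tested on chromosome 7 between 109288725 and 113643941 (Apol3, C1qtnf6, Kdelr3, Enthd1, LOC102549144 and Mei1), 5 higher and Enthd1 lower. A run of 4 lay on chromosome 1 between 133308914 and 134769776 (Rlbp1, Pex11a, Prc1 and Iqgap1), 3 higher and 1 lower. Along the RefSeq order 7 pairs of called genes were direct neighbours, 5 in the same direction, among them C1r with C1s and the collagen IV genes Col4a6 with Col4a5. These counts are descriptions with no test.

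Set against the panel, called genes were often at an extreme in one of the strains. SS was above all other strains for 27 of the 206 (13.1%, against 0.575% of all genes tested), including Nid1, Nid2, Thbd, Igf2, Vim and Dct, and below all others for 5 (2.43%, against 0.292%), including Smad9. SR was below all others for 29 (14.1%, against 1.3%), including Atp11b, Ddc, C1s, Calb2 and Cartpt, and above all others for 3 (1.46%, against 0.714%), Rtel1, Enthd1 and Sypl2. A gene that differs strongly between the strains is more likely to lie at an extreme, so the shares are given without a test. Dct, a melanin synthesis enzyme chosen after its value was seen, stood at 5.90, 5.71 and 5.18 in SS and 4.19, 4.25 and 4.06 in SR (1.43, limma adjusted p = 2.3e-04).

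In the same fit the number of called genes was computed for each of 153 pairs of 18 classic inbred strains with at least 3 animals. It ranged from 5 to 5952 with a median of 352, and 29 pairs had fewer than the 206 of SS and SR. Against the remaining 16 strains SS gave at least 84 and a median of 330.5 called genes, and SR at least 107 and a median of 537.5. The largest counts of all pairs were those of BN-Lx/Cub against SR (5952) and against SS (4232). BN/NHsdMcwi, with 58 called genes against BN-Lx/Cub, gave 580 against SR and 638 against SS. This fit held no batch term. SS and SR had their batches in common, whereas neither BN-Lx/Cub nor BN/NHsdMcwi shared a batch with them. How far batch entered the counts of the pairs was not tested, so they are not read as distances between strains. The pairs also share strains and libraries, so these are values side by side.

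**Figure D5:**
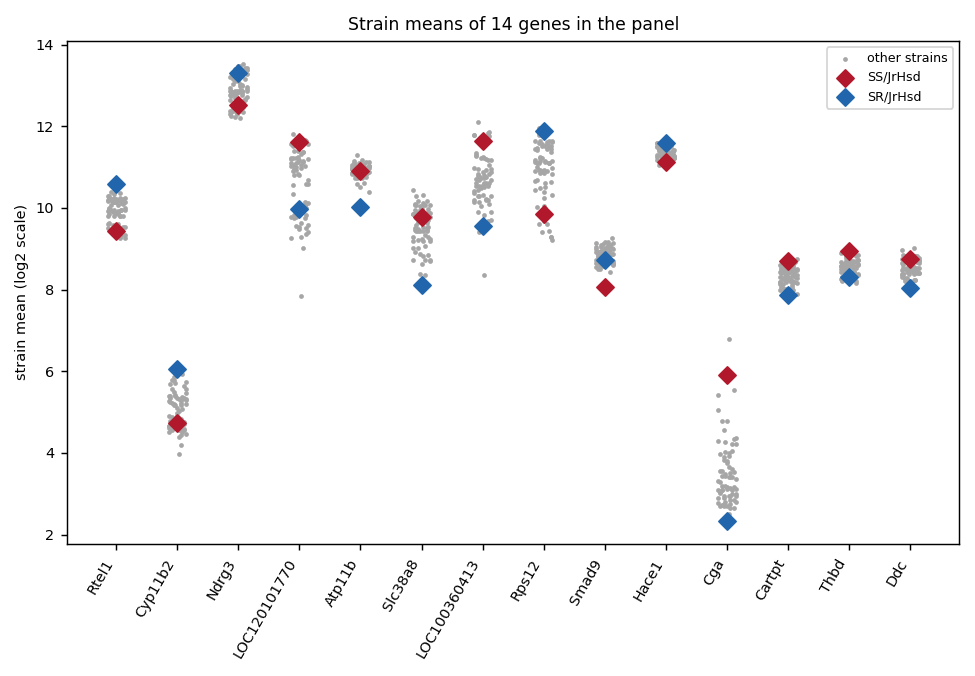
Strain means (y axis, log2 scale) of 14 named genes, with SS/JrHsd as red and SR/JrHsd as blue diamonds and the other strains of the panel as grey points. SR lies above every other strain for Rtel1 and below them for Atp11b, Cga, Cartpt and Ddc, and SS lies below them for Smad9 and above them for Thbd.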

How the data were processed

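Whole brain RNA of 3 SS/JrHsd and 3 SR/JrHsd rats was read from the authors' version 7.1 RefSeq gene and transcript tables, and checked in their version 5 Ensembl and version 6 Ensembl gene tables. Only the number of calls was taken from the version 7.1 reconstructed table, where none of the called genes could be matched by symbol. The deposited values are on a log2 scale. For version 5 the authors trimmed reads with cutadapt 1.9.1, removed ribosomal reads with Bowtie2 2.3.4.3, aligned with HISAT2 2.1.0, reconstructed transcripts with StringTie 1.3.5, quantified with RSEM (1.3.1 in the submitters' processing notes, a different version in the study's methods), removed a factor of unwanted variation and applied the regularized log of DESeq2, with rn6 as the build of the submitters' processing notes. The corresponding steps of versions 6 and 7.1 and the build of the version 7.1 annotation are not given in the sources used here. Removal of unwanted variation before deposit can also remove or spread strain differences, and depth per library cannot be recovered from these values. The strain means rest on 3 animals each, and the SE and p on the spread shared over all animals.

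Libraries of 1 animal were averaged (214 libraries, 197 animals, 74 strains) and 73 spike-ins left out. A mean per strain was fitted to each of 20859 genes and 45918 transcripts with limma 3.58.1 in R 4.3.3 over all animals, which share the estimate of the spread (123 residual degrees of freedom), and the contrast SS minus SR was called at a Benjamini-Hochberg adjusted p under 0.05 over the whole table, 2-sided. The script was tested on simulated data. Named genes were, among genes called, above the table's median level (8.33) and without overlap, up to 12 of the largest each way with a gene symbol other than LOC, RGD or -ps names (12 higher, and all 11 that were eligible lower) and the 3 largest each way of any symbol. To these were added, at any level, every called member of the gene lists and Necab3, S100a5, Corin and Ephx2 whether called or not. The members and lists were chosen with earlier results of these data known. One named gene is counted but not reported here. Lists are described by counts and medians with no test of their own.

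Alternatives were the other tables, the 6 animals alone, both batch assignments, a replicate block, each animal left out, a filter on level, a filter on values over 30, a variance trend with robust estimation, median centring and a minimum difference of 1. Replicate numbers come from the sample titles. Over genes, the deviations of same-numbered animals correlated at 0.555, 0.334 and 0.197. SS animal 2 correlated more with SR animal 3 (0.402) than with SR animal 2. SS animal 3 correlated more with SR animal 2 (0.291) than with SR animal 3. The correlations set animals 1 apart but do not pair animals 2 and 3 by number, and the replicate block was used as an alternative only. Sequences are from RefSeq (GRCr8).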

Additional observations from a re-analysis of the deposited data

How the results depend on the processing

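The count of 206 genes called by limma stayed within 1.5 times under the version 6 table (209), the reconstructed table (190 of 84239 features, none of which could be matched to the 206), the batch field (156) or title batch (191) as a covariate, the filter on values over 30 (206), the variance trend with robust estimation (205), median centring (162, with 66% higher in SS instead of 79.1%) and the replicate block inside the fit over all animals (208). It moved further with the version 5 table (768, of which 557 higher, with 142 of the 159 of the 206 that were found there among them), the 6 animals alone (18), the batch field within the 6 animals (10), the replicate block within the 6 animals (34), genes above the median level alone (86, from fewer genes tested), a minimum difference of 1 (25) and animal 1 of both strains left out (32). Leaving out 1 animal gave 55 to 348 genes. The count of 70 transcripts became 0 with the 6 animals alone (2238 at an unadjusted p under 0.05) or with their replicate block (2432), 26 to 90 with 1 animal left out, 66 with the batch field and 76 with the variance trend. The cause of these changes was not tested.

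All 635 values of the 34 called named genes under the alternatives kept their sign. The strains did not overlap for any of these 34 genes, so leaving out animals could not reverse a sign. Several other alternatives, such as the 6 animals alone or the variance trend, leave the difference itself unchanged. The count is therefore no measure of stability. Necab3, which was not called, went from 0.04 to -0.0031 without SS animal 1 and to -0.0376 without SR animal 2, and ranged up to 0.1365 with an animal left out. Of the 34 called named genes LOC120101770, Rtel1 and Cyp11b2 kept the call under every alternative in which they had a value. Rtel1 had a value under 19 alternatives, LOC120101770 under 17 and Cyp11b2 under 16. LOC120101770, Cyp11b2 and Ndrg3 were not found in versions 5 and 6, so their calls could not be checked there. The call held for 27 of 31 found in version 6 and 27 of 30 found in version 5. The fits without animal 1 of both strains and with the block inside the fit over all animals were chosen after seeing the data. Of the 34 called named genes 21 lost the call without a single animal, and depth could not be weighed because the tables hold no counts.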
